A study of Mus musculus with 18 samples.

Results

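Collagen processing and crosslinking enzymes were examined in sorted cancer cells by 10 genes: Serpinh1, Plod1, Plod2, Bmp1, Pcolce, Adamts2, Lox, Loxl1, Loxl2 and Loxl3. They were found by matching the symbol, ignoring case, in both count tables, and all 10 were present among 24455 symbols for 168FARN and 24532 symbols for LLC1. All 10 also passed the filter on low counts in both lines, but Lox, Loxl2 and Adamts2 were close to 0 in cells grown alone in both lines and were kept through the cocultures. Serpinh1 was also low in 168FARN alone, though high enough to be kept by that group itself.

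Collagen chains are modified and folded in the endoplasmic reticulum before they are secreted. Lysyl hydroxylases (the PLOD enzymes) hydroxylate lysines in the chain, and the chaperone HSP47, the product of Serpinh1, holds the triple helix together on its way out. Outside the cell, proteinases cut the propeptides off so that fibrils can form, and lysyl oxidases (LOX and the LOX-like enzymes) oxidise lysines and hydroxylysines, which then crosslink neighbouring molecules and stiffen the matrix. Fibroblasts are the usual main source of fibrillar collagen in a tumour, but carcinoma cells can also express the modifying and crosslinking enzymes.

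The libraries held RNA of mouse cancer cells grown for about a week as hanging-drop spheroids, tagged with GFP and sorted by flow cytometry before RNA extraction, per the study's methods. 168FARN, a breast cancer line, was grown alone or mixed with MMTV-CAFs, cancer-associated fibroblasts from tumours of MMTV-PyMT mice, which carry a mammary-driven polyoma middle T oncogene. LLC1, the Lewis lung carcinoma line, was grown alone or mixed with wound healing fibroblasts, which came from wounded dorsal skin at day 10. Both kinds of fibroblast were used as WT cells with the control guide sgNS, and as sgPrrx1 cells, in which CRISPR/Cas9 had deleted Prrx1, a homeobox transcription factor gene. Cancer cells and fibroblasts were mixed at 3 fibroblasts per cancer cell, and there were 3 libraries in each of the 6 groups. The sequenced cancer cells were not edited themselves, so their own Prrx1 counts are no test of the labels. Since each line was paired with its own kind of fibroblast, line and kind of fibroblast cannot be told apart. Nothing states that the libraries of a group came from separate cultures, and p-values therefore measure only the spread between these libraries.

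Libraries of 168FARN held 48315037 to 68933002 counts and those of LLC1 66129117 to 103997557. In LLC1, replicate 3 of the sgPrrx1 coculture stood apart: its log2 CPM correlated with its replicates at 0.949 and 0.950, while those correlated with each other at 0.991. LLC1 tests of the enzymes are therefore given without that library as well wherever their call changed. The biological coefficient of variation over genes was 0.0728 in 168FARN and 0.228 in LLC1. Levels are given in CPM, counts per 1000000 on library totals scaled by TMM (the trimmed mean of M-values). Log2 fold changes and adjusted p-values are from edgeR's quasi-likelihood test with Benjamini-Hochberg adjustment over all genes tested, and a gene was called at an adjusted p under 0.05.

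The promoters of Serpinh1 and Adamts2, which were near 0 in 168FARN cells alone and rose in coculture, are shown beside that of Plod1, which changed little. Each is the 250 bases before the annotated start of transcription (RefSeq, GRCm38.p6, the assembly of mm10), read 5′ to 3′ on the strand of the gene. Capitals mark the GC box, GGGCGG or its reverse complement CCGCCC.
Serpinh1 (chr7:99353240-99353489, minus strand): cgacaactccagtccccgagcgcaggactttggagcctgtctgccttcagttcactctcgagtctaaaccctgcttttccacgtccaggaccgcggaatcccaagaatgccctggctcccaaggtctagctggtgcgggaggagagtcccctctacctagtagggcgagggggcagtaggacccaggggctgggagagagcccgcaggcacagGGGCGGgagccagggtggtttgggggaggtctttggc
Adamts2 (chr11:50601835-50602084, plus strand): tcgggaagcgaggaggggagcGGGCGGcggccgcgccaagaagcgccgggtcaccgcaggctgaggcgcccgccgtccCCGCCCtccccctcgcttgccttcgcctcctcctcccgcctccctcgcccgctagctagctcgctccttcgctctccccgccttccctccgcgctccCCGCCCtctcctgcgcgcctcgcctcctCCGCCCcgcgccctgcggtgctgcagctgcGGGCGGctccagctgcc
Plod1 (chr4:147936777-147937026, minus strand): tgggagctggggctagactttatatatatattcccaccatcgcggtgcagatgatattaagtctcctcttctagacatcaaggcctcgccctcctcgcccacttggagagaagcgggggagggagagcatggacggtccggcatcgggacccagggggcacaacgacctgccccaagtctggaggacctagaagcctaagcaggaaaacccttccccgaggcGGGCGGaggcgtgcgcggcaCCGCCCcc
The GC box occurred 1 time before Serpinh1, 5 times before Adamts2 and 2 times before Plod1, and at least once in 32.7% of 32851 promoter windows of that length. GC content was 63.6%, 78.0% and 61.6%, against a median of 52.4% over those windows. Searched on both strands, the homeobox core TAATTA (in 4.84% of windows) and the heat shock element GAANNTTC (in 6.69%) were found in none of the 3, and the hypoxia response core ACGTG (in 16.6%) occurred 1 time, before Serpinh1. These matches describe letters and not binding. The RefSeq table used here held promoters of 4 of the 10 genes, and that of Pcolce is not shown because its window lies inside the annotated gene.

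The first question was how the enzymes of 168FARN cells differed after growth with WT MMTV-CAFs. All 10 were called, 8 higher and 2 lower than in cells alone. Over all 13540 genes 64.1% were called, 33.4% higher and 30.7% lower. The log2 fold change was at least 1 for Serpinh1, Adamts2, Lox and Loxl2, and each went from near 0 in cells alone to a clear level. Over all genes 10.2% were called with a change of at least 1 in either direction. The median log2 fold change of the 10 was 0.85, also with Adamts2 at its lower bound (given with that gene), against 0.01 for all genes tested. No enzyme's WT values overlapped those of cells alone, and 68.3% of all genes had such separate ranges. Since Adamts2, Lox and Loxl2 passed the filter only through the cocultures, they had to differ from cells alone. Adamts2 passed only through WT coculture and so had to differ from sgPrrx1 coculture as well. Nothing is therefore read from the counts or medians over the 10 in this line.

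When the MMTV-CAFs lacked Prrx1, all 10 enzymes of the 168FARN cells were lower than in WT coculture. Here 60.0% of all genes were called, 26.9% higher and 33.1% lower. Of the 10, 5 fell by at least 1 on the log2 scale (Adamts2, Loxl2, Lox, Serpinh1 and Loxl1), and 6.19% of all genes were called with a change of that size in either direction. The median was -0.96 for the enzymes and -0.03 for all genes. All 10 had separate ranges, against 66.2% of all genes.

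Against cells alone, the sgPrrx1 coculture of 168FARN had 8 of 10 enzymes called, 4 higher (Lox, Loxl2, Serpinh1 and Adamts2) and 4 lower (Bmp1, Loxl3, Pcolce and Plod1), where 49.7% of all genes were called, 25.7% higher and 24.1% lower. The 4 higher ones had a log2 fold change of at least 1 (for Adamts2 only by a fitted value on at most 4 counts), as had 7.25% of all genes in either direction. Separate ranges were found for 7 of 10, a share near the 59.4% of all genes. All 3 comparisons within a line share libraries, so they are not independent of each other.

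**Figure D1:**
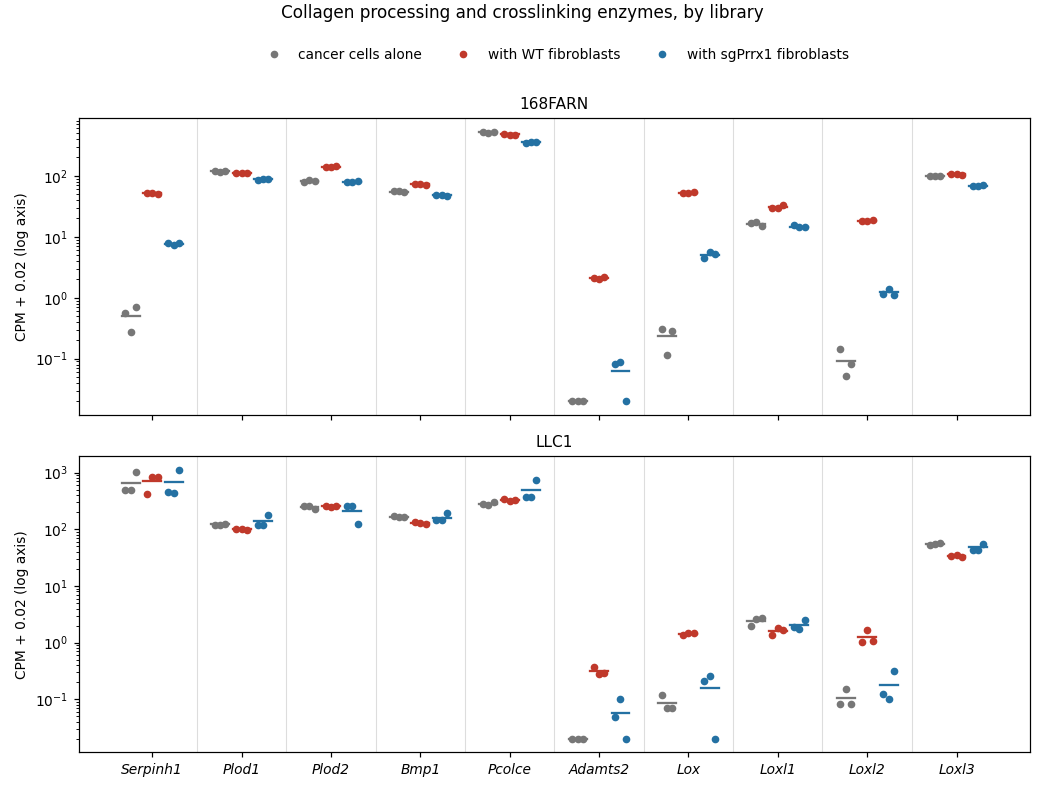
CPM plus 0.02 on a log axis (vertical) for each of the 10 enzymes (horizontal), with a point for each library and a line at the mean of each group; the upper panel is 168FARN and the lower panel LLC1. In 168FARN, Serpinh1, Adamts2, Lox and Loxl2 climb from below 1 CPM alone to between 1.99 and 54.1 CPM with WT fibroblasts, and the sgPrrx1 means lie in between, while in LLC1 a rise with WT fibroblasts is seen at lower levels for Adamts2, Lox and Loxl2 and not for Serpinh1, and the sgPrrx1 libraries of all 4 genes overlap those of cells alone.

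Serpinh1 (chromosome 7, 99345375 to 99353239, minus strand) encodes HSP47, the collagen-specific chaperone. In 168FARN cells alone its level was 0.534, 0.249 and 0.680 CPM, from 26, 16 and 33 counts. With WT CAFs it was 52.6, 53.0 and 49.7 CPM, and with sgPrrx1 CAFs 7.97, 7.31 and 7.73 CPM. The 3 groups did not overlap, and the order was alone, sgPrrx1, WT. The mean of WT coculture, 51.8 ± 1.79 CPM (SD, n = 3), was 106-fold that of cells alone (log2 fold change 6.79, SE 0.15, adjusted p = 3.33e-11 by edgeR). In sgPrrx1 coculture the mean was 14.8% of the WT mean (log2 fold change -2.76, SE 0.10, adjusted p = 4.18e-09 by edgeR) and still 15.7-fold that of cells alone.

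LLC1 cells expressed Serpinh1 without fibroblasts, and at a higher CPM than 168FARN in any group, although the 2 tables were scaled separately. Its LLC1 values were 484, 483 and 1025 CPM alone, 417, 829 and 843 CPM with WT fibroblasts, and 447, 433 and 1129 CPM with sgPrrx1 fibroblasts. Within every group the highest library was 2.02 to 2.61 times the lowest, and the groups overlapped fully. None of the 3 contrasts was called: the log2 fold change of WT against alone was 0.07, with a 95% interval from -1.02 to 1.16, and that of sgPrrx1 against WT was -0.06, from -1.15 to 1.03, or -0.67 (SE 0.39, not called) without sgPrrx1 replicate 3. The response of Serpinh1 to WT coculture differed between the lines, by -6.70 on the log2 scale (SE 0.64, LLC1 minus 168FARN, adjusted p = 1.92e-06 by edgeR's test of the interaction).

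Plod1 (chromosome 4, 147909753 to 147936776, minus strand) encodes lysyl hydroxylase 1, which acts mainly on lysines of the helical part of the chain. Its level in 168FARN was 120, 116 and 119 CPM alone, 111, 111 and 110 CPM with WT CAFs, and 86.8, 88.0 and 87.2 CPM with sgPrrx1 CAFs. The groups did not overlap, and both steps down were called, from alone to WT (log2 fold change -0.10, SE 0.03, adjusted p = 0.00494 by edgeR) and from WT to sgPrrx1 (-0.34, SE 0.03, adjusted p = 8.12e-07 by edgeR). LLC1 cells had 121, 121 and 122 CPM alone, 101, 103 and 98.3 CPM with WT fibroblasts, and 119, 120 and 176 CPM with sgPrrx1 fibroblasts, the last from replicate 3. No LLC1 contrast of Plod1 was called over all libraries, where WT against alone was -0.27 (SE 0.15) and sgPrrx1 against WT 0.46 (SE 0.15). Without that replicate, WT was called lower than alone (-0.26, SE 0.04) and sgPrrx1 higher than WT (0.24, SE 0.05).

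Plod2 (chromosome 9, 92539636 to 92608428, plus strand) encodes lysyl hydroxylase 2, whose long form hydroxylates the telopeptide lysines that give stable hydroxylysine aldehyde crosslinks. The 168FARN levels were 79.5, 84.5 and 82.2 CPM alone, 141, 139 and 143 CPM with WT CAFs, and 80.4, 78.0 and 80.9 CPM with sgPrrx1 CAFs. WT coculture stood above both other groups, which overlapped each other. The mean rose from 82.1 ± 2.53 to 141 ± 1.88 CPM (SD, n = 3; log2 fold change 0.78, SE 0.03, adjusted p = 3.73e-09 by edgeR) and fell by 0.82 on the log2 scale from WT to sgPrrx1 (SE 0.03, adjusted p = 5.83e-09 by edgeR). The sgPrrx1 coculture against cells alone gave -0.04, with a 95% interval from -0.11 to 0.03. The counts do not separate the long and short form, and a long non-coding RNA, B430319G15Rik, overlaps the gene. The strand setting of the counting is not given in the sources used here, so reads of overlapping genes cannot be told apart.

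In LLC1, Plod2 was 257, 255 and 225 CPM alone, 253, 249 and 257 CPM with WT fibroblasts, and 252, 256 and 122 CPM with sgPrrx1 fibroblasts. Apart from replicate 3 of the last group, at 122 CPM, all libraries lay between 225 and 257 CPM. No contrast was called, with or without that replicate, and WT against alone was 0.04 (95% interval -0.52 to 0.61). The difference of this response between the lines was -0.73 (SE 0.27, adjusted p = 0.0571 by edgeR), and without the replicate it was -0.69 (SE 0.06) and passed the threshold.

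Bmp1 (chromosome 14, 70474555 to 70520716, minus strand) encodes the procollagen C-proteinase, which also activates lysyl oxidase by cutting off its propeptide. Its 168FARN values were 55.8, 56.4 and 53.4 CPM alone, 72.8, 72.6 and 70.4 CPM with WT CAFs, and 47.8, 48.0 and 47.4 CPM with sgPrrx1 CAFs. All 3 groups were apart, and the sgPrrx1 values lay below those of cells alone. WT exceeded alone by 0.38 (log2 fold change, SE 0.03, adjusted p = 7.30e-07 by edgeR), and sgPrrx1 lay 0.59 below WT (log2 fold change -0.59, SE 0.03, adjusted p = 4.88e-08 by edgeR). In LLC1 the WT libraries were instead the lowest, with 169, 162 and 166 CPM alone, 133, 131 and 125 CPM with WT fibroblasts, and 143, 147 and 191 CPM with sgPrrx1 fibroblasts, although no LLC1 contrast was called over all libraries. Without replicate 3, WT was called lower than alone (-0.34, SE 0.05), as was sgPrrx1 (-0.18, SE 0.06). The log2 fold change of sgPrrx1 against WT was 0.31 (SE 0.12) with that replicate and 0.16 (SE 0.06) without it, and neither was called. Both responses of Bmp1 differed between the lines, WT against alone by -0.74 (adjusted p = 0.000139) and sgPrrx1 against WT by 0.88 (adjusted p = 6.53e-05), by edgeR's interaction test. The predicted gene Gm52136 lies within Bmp1.

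Pcolce (chromosome 5, 137605105 to 137611522) encodes an enhancer of the C-proteinase, and of the 10 it had the highest level per length in 168FARN alone, 136 CPM per kb of exon. Its values there were 524, 512 and 520 CPM alone, 487, 469 and 473 CPM with WT CAFs, and 348, 354 and 359 CPM with sgPrrx1 CAFs. The groups were apart and fell in that order, by 0.12 (SE 0.02, adjusted p = 0.000667 by edgeR) from alone to WT and by 0.43 (SE 0.02, adjusted p = 7.59e-08 by edgeR) from WT to sgPrrx1 on the log2 scale. LLC1 gave 277, 272 and 305 CPM alone, 344, 320 and 330 CPM with WT fibroblasts, and 367, 373 and 747 CPM with sgPrrx1 fibroblasts. Every coculture library lay above every library of cells alone, and replicate 3 of sgPrrx1 lay far above all others. Pcolce was called in no LLC1 contrast over all libraries, and without that replicate in both cocultures against alone (0.23, SE 0.06, for WT and 0.39, SE 0.07, for sgPrrx1, the latter 0.80, SE 0.26, over all libraries). The log2 fold change of sgPrrx1 against WT was 0.58 (SE 0.26) with the replicate and 0.15 (SE 0.07) without it, and neither was called.

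Adamts2 (chromosome 11, 50602085 to 50807573, plus strand) encodes the procollagen N-proteinase. No read was counted in cells alone in either line. In 168FARN it had 148, 136 and 107 counts with WT CAFs (2.10, 1.99 and 2.17 CPM) and 3, 4 and 0 counts with sgPrrx1 CAFs. In both lines it passed the filter only through WT coculture, so it had to be lower in both other groups. Its p-values against WT coculture are therefore given as a description only. The WT mean was at least 36.8-fold higher than alone, taking 3 counts per library as the limit that a count of 0 allows (adjusted p = 2.81e-06 by edgeR), and the sgPrrx1 mean was 2.07% of it (log2 fold change -5.56, SE 0.45, adjusted p = 7.03e-06 by edgeR, or -4.96 without sgPrrx1 replicate 3, which had 0 counts). The sgPrrx1 coculture was also called against alone, at an adjusted p of 0.0492 by edgeR, but with at most 4 counts no fold is given, and over the alternative settings this p ranged from 0.00826 to 0.123. LLC1 held 28, 20 and 20 counts with WT fibroblasts (0.348, 0.265 and 0.269 CPM) and 3, 7 and 0 with sgPrrx1 fibroblasts, and there the WT mean was at least 7.82-fold higher than alone (adjusted p = 0.0197 by edgeR). Over the alternative settings this p ranged from 2.01e-05 to 0.0834, so the call was not kept in all of them. The LLC1 sgPrrx1 coculture against WT gave -2.86 (SE 0.75) over all libraries and -2.43 (SE 0.65) without replicate 3, neither of them called. With each library left out in turn, this value ran from -3.96 to -2.43. Against alone, the LLC1 sgPrrx1 coculture was not called over all libraries (adjusted p = 0.156 by edgeR) and was without replicate 3 (adjusted p = 0.0361 by edgeR), on 3 and 7 counts. The predicted genes Gm39819 and Gm51860, the latter on the opposite strand, lie within Adamts2.

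Lox (chromosome 18) encodes lysyl oxidase, the first of the copper-dependent crosslinking enzymes. In 168FARN cells alone it was at 0.288, 0.0935 and 0.268 CPM, from 14, 6 and 13 counts. WT coculture brought 51.2, 52.9 and 54.1 CPM, and sgPrrx1 coculture 4.42, 5.53 and 5.18 CPM. The groups were far apart: the WT mean of 52.7 ± 1.47 CPM (SD, n = 3) was 244-fold that of cells alone (log2 fold change 7.99, SE 0.15, adjusted p = 1.52e-11 by edgeR). With sgPrrx1 CAFs the mean was 9.57% of the WT mean (log2 fold change -3.38, SE 0.10, adjusted p = 1.02e-09 by edgeR) and 23.3-fold that of cells alone (log2 fold change 4.61, SE 0.20, adjusted p = 1.27e-08 by edgeR).

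In LLC1 Lox was also highest in WT coculture, at a far lower level. Its values were 0.0999, 0.0491 and 0.0513 CPM alone, from 8, 4 and 4 counts, and 1.35, 1.46 and 1.47 CPM with WT fibroblasts. With sgPrrx1 fibroblasts they were 0.188, 0.235 and 0 CPM, from 20, 20 and 0 counts. WT was 21.4-fold higher than alone (log2 fold change 4.38, SE 0.74, adjusted p = 0.0119 by edgeR). Over the alternative settings this p ranged from 5.13e-08 to 0.0704, so the call was not kept in all of them. The sgPrrx1 mean was 9.90% of the WT mean, and this contrast was not called over all libraries (log2 fold change -3.23, SE 0.67, adjusted p = 0.161 by edgeR), but was without replicate 3 (-2.75, SE 0.31). The sgPrrx1 and alone ranges overlapped, with a log2 fold change of 1.15 (SE 0.80, not called), or 1.64 (SE 0.38) and called without that replicate. The rise with WT fibroblasts was smaller in LLC1 than in 168FARN, by 3.60 on the log2 scale (difference -3.60, SE 0.82, adjusted p = 0.00394 by edgeR's interaction test). For sgPrrx1 against WT the difference between the lines was 0.20 (SE 0.56, adjusted p = 0.904 by edgeR).

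Loxl1 (chromosome 9, 58287723 to 58313212, minus strand) encodes a lysyl oxidase-like enzyme known for its role in elastic fibres. In 168FARN it measured 16.6, 17.6 and 14.9 CPM alone, 30.0, 29.8 and 33.4 CPM with WT CAFs, and 15.3, 14.2 and 14.3 CPM with sgPrrx1 CAFs. WT stood above both other groups, which overlapped. It rose by 0.92 on the log2 scale with WT CAFs (SE 0.07, adjusted p = 3.87e-07 by edgeR) and fell by 1.09 from WT to sgPrrx1 (SE 0.07, adjusted p = 1.80e-07 by edgeR), and sgPrrx1 against alone was not called (-0.17, 95% interval -0.32 to -0.02, adjusted p = 0.0641 by edgeR). In LLC1 the level was low, at 1.96, 2.58 and 2.69 CPM alone, 1.33, 1.81 and 1.63 CPM with WT fibroblasts, and 1.90, 1.703 and 2.48 CPM with sgPrrx1 fibroblasts. WT lay below alone there, a difference that was called without sgPrrx1 replicate 3 (-0.59, SE 0.18) and not with it (-0.60, SE 0.21). The WT response differed between the lines by -1.52 (SE 0.20, adjusted p = 4.64e-05 by edgeR's interaction test).

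Loxl2 (chromosome 14, 69608692 to 69695834, plus strand) encodes the LOX-like enzyme that crosslinks basement membrane collagen IV and also acts on fibrillar collagen. Cells of 168FARN alone had 6, 2 and 3 counts, or 0.123, 0.0312 and 0.0618 CPM. With WT CAFs there were 18.2, 18.4 and 18.5 CPM, and with sgPrrx1 CAFs 1.15, 1.37 and 1.10 CPM. The 3 groups were apart, as for Lox, and the WT mean of 18.4 ± 0.159 CPM (SD, n = 3) was 255-fold that of cells alone (log2 fold change 8.03, SE 0.19, adjusted p = 5.97e-11 by edgeR). On so few counts alone this value was 8.62 without replicate 1 of cells alone, and 7.60 to 8.62 over all libraries left out in turn. The sgPrrx1 mean was 6.56% of the WT mean (log2 fold change -3.92, SE 0.12, adjusted p = 1.37e-09 by edgeR). LLC1 had 0.0624, 0.135 and 0.0642 CPM alone, 1.01, 1.67 and 1.06 CPM with WT fibroblasts, and 0.104, 0.0822 and 0.291 CPM with sgPrrx1 fibroblasts. Only the WT libraries stood apart there, 14.3-fold above alone (log2 fold change 3.81, SE 0.54, adjusted p = 0.00652 by edgeR), and sgPrrx1 against WT was -3.04 (SE 0.51, adjusted p = 0.116 by edgeR), or -3.72 (SE 0.45) and called without replicate 3. The predicted gene Gm27177 and the microRNA gene Mir6950 overlap Loxl2.

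Loxl3 (chromosome 6, 83034205 to 83052566, plus strand), a further LOX-like enzyme that overlaps Htra2 and the microRNA gene Mir7040, was well expressed without fibroblasts in both lines. Its 168FARN levels were 98.2, 100.0 and 99.3 CPM alone, 108, 107 and 104 CPM with WT CAFs, and 69.2, 68.7 and 69.3 CPM with sgPrrx1 CAFs. WT lay just above alone (log2 fold change 0.10, SE 0.03, adjusted p = 0.00544 by edgeR), and sgPrrx1 below both (-0.62, SE 0.03, adjusted p = 1.35e-08 by edgeR against WT). LLC1 had 53.6, 56.0 and 56.2 CPM alone, 34.3, 35.3 and 32.7 CPM with WT fibroblasts, and 43.8, 43.7 and 55.6 CPM with sgPrrx1 fibroblasts. There the WT libraries were the lowest, below alone (-0.70, SE 0.11, adjusted p = 0.0102 by edgeR), so the direction with WT fibroblasts was opposite in the lines (difference -0.79, SE 0.10, adjusted p = 3.39e-05 by edgeR's interaction test). From WT to sgPrrx1, Loxl3 of LLC1 was 0.48 higher on the log2 scale (SE 0.11, not called), and 0.35 higher (SE 0.06) and called without replicate 3. Against cells alone, sgPrrx1 was at -0.21 (SE 0.11, adjusted p = 0.284 by edgeR) over all libraries, and at -0.33 (SE 0.06, adjusted p = 0.00392 by edgeR) and called without that replicate.

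In LLC1 as a whole, WT coculture against alone had 4 of 10 enzymes called (Lox, Loxl2 and Adamts2 higher, Loxl3 lower), against 8.83% of 12873 genes, 4.25% higher and 4.58% lower. The 3 higher ones, with 0 to 11 counts in libraries of cells alone, had a log2 fold change of at least 1, as had 2.56% of all genes in either direction. Without sgPrrx1 replicate 3, whose spread enters the shared error, 8 of 10 were called, 4 in each direction, against 44.2% of genes, 22.0% higher and 22.2% lower. Leaving out any 1 of the alone or WT libraries of LLC1 gave 1 or 2 called, and the share of all genes was not counted in those fits. For sgPrrx1 against alone, 0 of 10 were called by edgeR, against 4.32% of genes, 2.01% higher and 2.31% lower. At an unadjusted p under 0.05 there were 2 (23.7% of genes), DESeq2 called 2 (15.1% of genes) and limma voom with sample quality weights 5 (48.0% of genes), and without the replicate edgeR called 5, 3 higher and 2 lower, against 26.7% of genes, 12.5% higher and 14.2% lower. For sgPrrx1 against WT, edgeR called 0 of 10, against 0.0544% of genes. Here 6 passed an unadjusted p of 0.05 (12.0% of genes), DESeq2 called 4 (3.90% of genes) and limma voom with weights 6 (36.4% of genes), and without the replicate edgeR called 4, 2 higher and 2 lower (Lox and Loxl2), against 5.69% of genes, 2.94% higher and 2.75% lower. Separate ranges were found for 8 of 10 in WT against alone, 1 of 10 in sgPrrx1 against alone and 7 of 10 in sgPrrx1 against WT, where 53.2%, 32.4% and 23.6% of all genes had them. Over all libraries Lox, Loxl2 and Adamts2 passed the filter only through WT coculture, where they were high, and so had to differ from it. Nothing is therefore read from the counts over the 10 in either LLC1 contrast with WT, separate ranges included, with or without replicate 3.

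Tested directly, 6 of 10 enzymes responded differently to WT coculture in the 2 lines (29.4% of 14369 genes did), all with a lower log2 fold change in LLC1: Serpinh1, Loxl2, Lox, Loxl1, Loxl3 and Bmp1. The response to Prrx1 deletion, sgPrrx1 against WT, differed for 6 of 10 (19.3% of genes): Serpinh1, Loxl1, Loxl3, Pcolce, Bmp1 and Plod1, each with the higher value in LLC1. Pcolce and Plod1 were among the 4 not called for the WT response, with differences of 0.35 (adjusted p = 0.353) and -0.17 (adjusted p = 0.423) by edgeR. Without LLC1 sgPrrx1 replicate 3, both were called, at 0.38 (adjusted p = 0.000146) and -0.13 (adjusted p = 0.0190) by edgeR. In that fit 9 of 10 differed in the WT response, against 52.5% of genes, and 8 of 10 in sgPrrx1 against WT, against 44.5%. Adamts2 could not be compared in the WT response, since both lines had 0 counts alone. As Adamts2, Lox and Loxl2 passed the filter only through the cocultures, nothing is read from these counts over the 10 or their common direction.

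**Figure D2:**
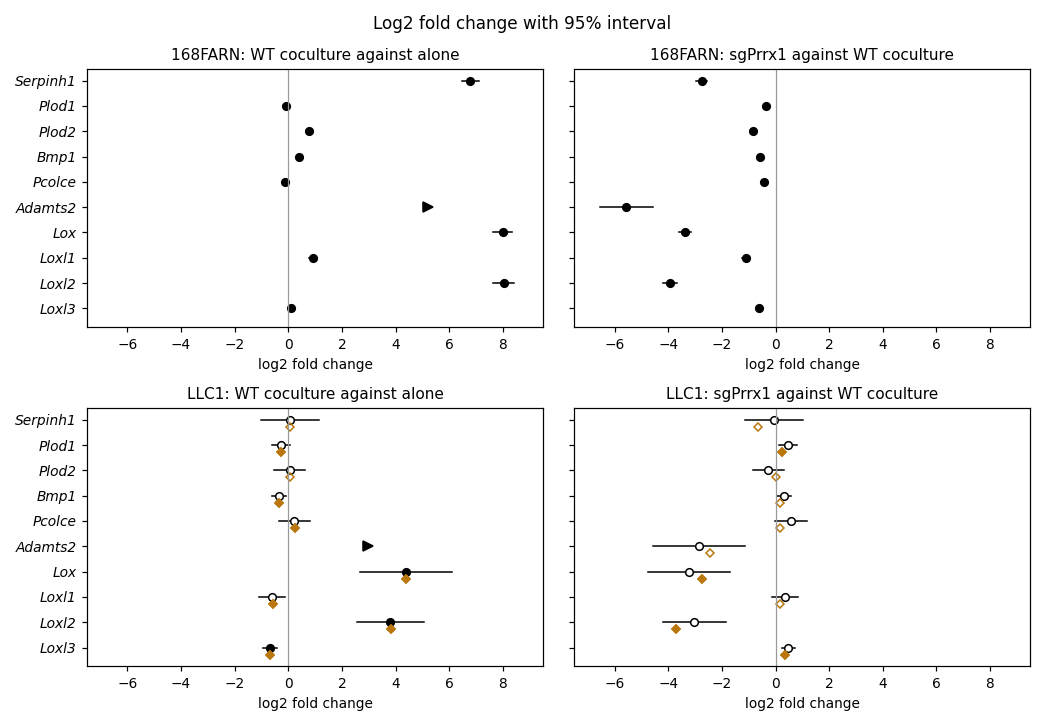
Log2 fold change (horizontal) of each enzyme (vertical) with its 95% interval, for WT coculture against alone (left) and sgPrrx1 against WT coculture (right) in 168FARN (top) and LLC1 (bottom). Filled circles passed an adjusted p of 0.05 and open circles did not, diamonds in the lower panels are the LLC1 values without sgPrrx1 replicate 3, filled likewise, and triangles are the lower bounds for Adamts2 (log2 of 36.8-fold and 7.82-fold), which had 0 counts alone. All 10 points lie below 0 in the upper right panel.

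Isoenzymes were set side by side per length, as CPM per kb of exon, since counts grow with transcript length. Within the LOX family of 168FARN (Lox, Loxl1 to Loxl3 and Loxl4, a further LOX-like enzyme), Loxl4 and Loxl3 made up most of the sum in cells alone, 47.9% ± 0.778 and 43.1% ± 0.380 (SD, n = 3). In WT coculture Lox went from 0.0840% to 17.0% ± 0.440 of the family, Loxl1 from 8.94% to 14.1% ± 0.926 and Loxl2 from 0.0246% to 5.20% ± 0.0361, while Loxl4 took 25.5% ± 0.660. With sgPrrx1 CAFs the share of Lox was 2.75% ± 0.337 and that of Loxl4 43.4% ± 1.13. The family sum was 54.8 ± 0.116 CPM per kb alone, 66.2 ± 0.286 with WT CAFs and 39.1 ± 0.832 with sgPrrx1 CAFs. The sum in sgPrrx1 coculture was thus below that of cells alone, although Lox and Loxl2 were above it.

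In LLC1 the family was mostly Loxl3 and Loxl4 in every group, 51.8% ± 3.25 and 45.3% ± 3.67 alone (SD, n = 3). Lox took 0.0558% alone, 1.86% ± 0.555 with WT fibroblasts and 0.140% with sgPrrx1 fibroblasts. Loxl4 in the WT libraries was 41.9, 43.4 and 15.6 CPM, so that replicate 3 of WT stood apart in this gene.

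Among the lysyl hydroxylases of 168FARN, Plod2 made up 26.3% ± 0.783 of the PLOD sum alone, 33.5% ± 0.457 with WT CAFs and 27.8% ± 0.514 with sgPrrx1 CAFs. Plod3, which also glycosylates hydroxylysine, kept about the same share, 50.3% alone, 50.3% with WT and 53.4% with sgPrrx1 CAFs, as its own level rose with WT CAFs (log2 fold change 0.43, SE 0.03). The share of Plod1 was 23.4% alone and 16.2% with WT CAFs. LLC1 cells had a larger share of Plod2, 44.7% ± 2.46 alone and 48.2% ± 0.0998 with WT fibroblasts. With sgPrrx1 fibroblasts it was 36.6% ± 14.5, from 44.5%, 45.4% and, in replicate 3, 19.9%. The order within the PLOD family depended on the length used. By the longest annotated transcript, Plod2 was 21.7% and Plod1 28.1% in 168FARN alone, and Plod2 38.9% and Plod3 43.8% in LLC1 alone. Among the N-proteinases, Adamts14 held 95.4% to 100% of the family in every library of both lines. Its level was 83.1 ± 2.63 CPM (SD, n = 3) in 168FARN alone.

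**Figure D3:**
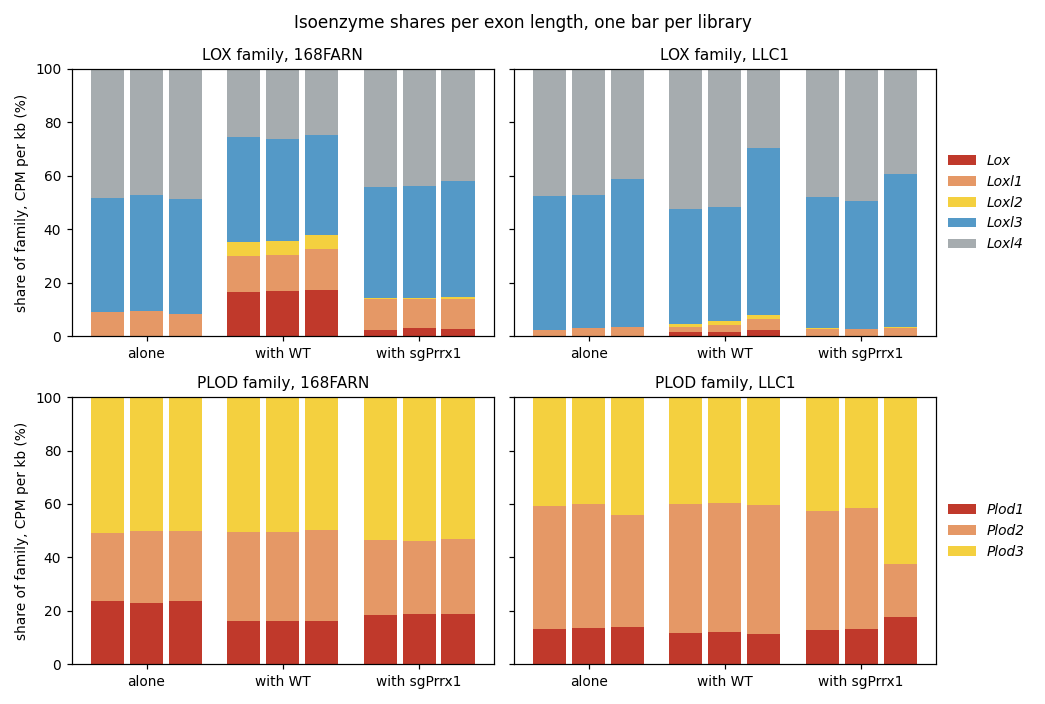
Share of each isoenzyme in its family, in percent of the summed CPM per kb of exon (vertical), with 1 bar per library grouped by condition (horizontal), for the LOX family (top) and the PLOD family (bottom) in 168FARN (left) and LLC1 (right). Lox, Loxl1 and Loxl2 widen in the 3 WT bars of 168FARN, and the third sgPrrx1 bar of LLC1 differs from its neighbours in the PLOD family.

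The substrates of these enzymes were examined next. Of 9 fibrillar collagen chains tested in 168FARN, 7 rose with WT CAFs and none fell (median log2 fold change 1.33), where 64.1% of all genes were called, 33.4% higher. For sgPrrx1 against WT 7 were lower and none higher (median -1.29), where 60.0% of all genes were called, 33.1% lower. Col1a1 averaged 3.74 CPM alone, 161 CPM with WT CAFs and 10.4 CPM with sgPrrx1 CAFs, Col1a2 0.103, 148 and 12.9 CPM, and Col5a2 0.475, 37.1 and 4.71 CPM. Col3a1 averaged 8.20, 239 and 32.7 CPM. Some list genes near 0 in cells alone, such as Col1a2, passed the filter only through coculture and had to be higher there. Nothing is therefore read from the counts or medians of this list or of the gene lists that follow, in either line. In LLC1, 5 of 10 chains were called in WT against alone, 2 higher and 3 lower, against 8.83% of all genes, and 6 of 10 without sgPrrx1 replicate 3, against 44.2%. Col1a1 (0.375, 8.60 and 0.681 CPM) and Col1a2 (0.0296, 8.68 and 0.264 CPM) were the 2 that rose, and both fell from WT to sgPrrx1 over all libraries (adjusted p = 0.00540 for Col1a1 and 0.00361 for Col1a2 by edgeR), the only chains called there, while without replicate 3 of sgPrrx1 there were 5, 3 higher and 2 lower, against 5.69% of all genes. Col3a1, by contrast, was abundant in LLC1 cells alone at 1579 CPM and fell with WT fibroblasts (log2 fold change -0.55, SE 0.07, adjusted p = 0.00549 by edgeR). Thus LLC1 cells alone expressed Serpinh1 and Col3a1 but not Lox, Loxl2, Col1a1 or Col1a2 above 1 CPM.

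Other enzymes that modify collagen inside the cell were followed as a list. In 168FARN 15 of 18 were called in WT against alone, 10 higher and 5 lower, and 15 of 18 in sgPrrx1 against WT, 2 higher and 13 lower (medians 0.14 and -0.34), where 64.1% and 60.0% of all genes were called. Fkbp10, a prolyl isomerase that works with lysyl hydroxylases, averaged 0.0997, 10.7 and 2.54 CPM over the 3 groups, and P3h4, a scaffold protein needed for lysyl hydroxylation, 0.308, 4.73 and 1.20 CPM, in the order alone, WT, sgPrrx1. Both had the low level in cells alone that Serpinh1 had, and both were expressed in LLC1 cells alone, at 104 CPM for Fkbp10 and 22.5 CPM for P3h4. The prolyl 4-hydroxylase subunits P4ha1 and P4ha2, needed for a stable helix, averaged 218, 288 and 187 CPM and 32.5, 69.1 and 36.6 CPM. P3h2, a prolyl 3-hydroxylase, went the other way, from 160 CPM alone to 90.7 with WT and 94.5 with sgPrrx1 CAFs. In LLC1, 1 of 19 was called for WT against alone (lower) and 0 of 19 for both other contrasts by edgeR, against 8.83%, 4.32% and 0.0544% of all genes. Without sgPrrx1 replicate 3 the counts were 8 of 19 (2 higher, 6 lower) for WT against alone, 4 of 19 (2 higher, 2 lower) for sgPrrx1 against alone and 3 of 19 (all higher) for sgPrrx1 against WT. The shares of all genes were then 44.2%, 26.7% and 5.69%.

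**Figure D4:**
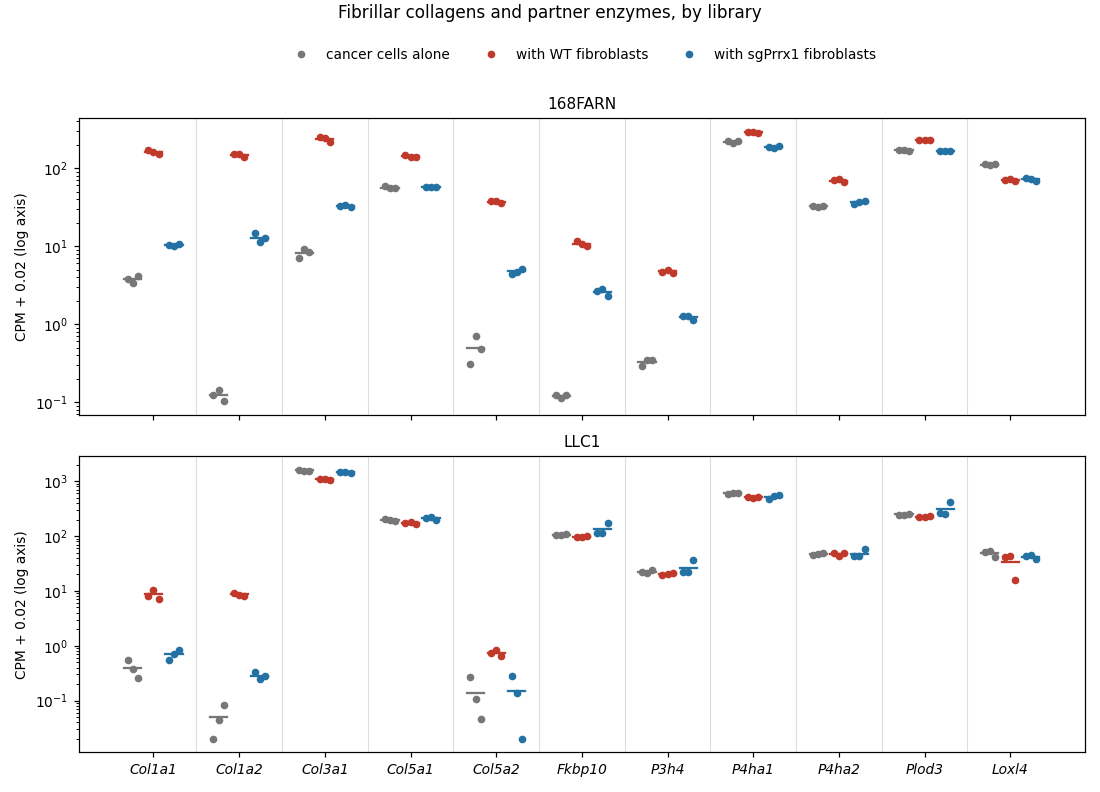
CPM plus 0.02 on a log axis (vertical) of fibrillar collagens and partner enzymes (horizontal), with a point per library and a line at each group mean, in 168FARN (upper panel) and LLC1 (lower panel). Col1a1, Col1a2, Col5a2, Fkbp10 and P3h4 are low in 168FARN alone, whereas Col3a1, Fkbp10 and P3h4 are high in LLC1 alone.

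Of the other processing and crosslinking genes 6 were tested in each line. In 168FARN 5 of 6 were called in WT against alone, 2 higher and 3 lower, against 64.1% of all genes, among them Tgm2, a transglutaminase (0.67), Pcolce2 (0.33) and Loxl4 (-0.64). In sgPrrx1 against WT 5 of 6 were called, 1 higher and 4 lower, against 60.0% of all genes, and Loxl4 was not (0.01). LLC1 had 3 of 6 called in WT against alone, 1 higher (Pcolce2, 0.59) and 2 lower (Tgm2, -0.95, and Adamts14, -0.55), against 8.83% of all genes. Without sgPrrx1 replicate 3 it had 4 of 6, 1 higher and 3 lower, against 44.2%.

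Wider matrix groups were counted in the same comparisons of 168FARN. In WT against alone, 9 of 9 collagen-degrading genes and their inhibitors were called, 6 higher and 3 lower, 7 of 8 elastic fibre genes, 6 higher and 1 lower, and 6 of 7 small proteoglycan and fibril assembly genes, 5 higher and 1 lower, against 64.1% of all genes. From WT to sgPrrx1 the counts were 8 of 9 (1 higher, 7 lower), 7 of 8 (0 higher, 7 lower) and 6 of 7 (1 higher, 5 lower), against 60.0% of all genes. Among those that rose with WT CAFs were Mmp13, a collagenase (log2 fold change 3.15), Fbn1, the fibrillin-1 gene (6.69), and Dcn, the proteoglycan decorin (8.43). The largest rise in the first list was that of the inhibitor Timp3 (11.2), and in the third list Ogn fell (-1.94). LLC1 had 4 of 8 (2 higher, 2 lower), 3 of 7 (1 higher, 2 lower) and 2 of 8 (both higher) of these genes called in WT against alone, where 8.83% of all genes were. Without sgPrrx1 replicate 3 the counts were 6 of 9 (3 higher, 3 lower), 4 of 7 (1 higher, 3 lower) and 5 of 8 (3 higher, 2 lower), against 44.2% of all genes.

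Known targets of TGF-β, hypoxia and heat shock were counted the same way, together with general chaperones. Of all genes in 168FARN, 33.4% were higher and 30.7% lower in WT against alone, and 26.9% were higher and 33.1% lower in sgPrrx1 against WT. In 168FARN, 12 of 12 TGF-β targets rose with WT CAFs and 11 of 12 fell from WT to sgPrrx1, among them Ctgf, a matricellular protein (-4.34). Of 13 hypoxia targets, P4ha1 among them, 11 rose with WT CAFs and none fell, and 3 were higher and 6 lower in sgPrrx1 than in WT. Heat shock targets were split, 4 higher and 4 lower of 9 with WT CAFs and 3 and 3 from WT to sgPrrx1, and of 10 endoplasmic reticulum chaperones 1 was higher and 3 lower with WT CAFs and 2 were higher and 6 lower from WT to sgPrrx1. In LLC1, WT against alone called 4 of 11 TGF-β targets (1 higher, 3 lower), 0 of 13 hypoxia targets by edgeR, 2 of 10 heat shock targets (both lower) and 1 of 10 chaperones (higher), against 8.83% of all genes. Without sgPrrx1 replicate 3 these counts were 7 of 11 (3 higher, 4 lower), 7 of 13 (4 higher, 3 lower), 7 of 10 (5 higher, 2 lower) and 6 of 10 (4 higher, 2 lower), against 44.2% of all genes.

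Fibroblast markers were summed in each library. In 168FARN the sum of 13 such markers was 174 to 177 CPM alone, 344 to 347 CPM with WT CAFs and 238 to 244 CPM with sgPrrx1 CAFs, and 8 of 11 tested were called in WT against alone, 6 higher and 2 lower, and 9 of 11 in sgPrrx1 against WT, 1 higher and 8 lower, where 64.1% and 60.0% of all genes were called. Much of the sum came from genes that the cancer cells expressed alone, Pdgfra (69.3 CPM) and Pdgfrb (43.0 CPM). Of the markers near 0 in cells alone, Dcn averaged 0.275, 92.8 and 43.3 CPM and Postn 0, 22.1 and 0.0223 CPM in the order alone, WT, sgPrrx1. Other markers did not rise with WT CAFs. In the same order, Ogn averaged 7.53, 1.95 and 1.39 CPM, Twist2 41.5, 39.1 and 55.9 CPM and Pi16 2.98, 2.63 and 2.13 CPM. Thy1 had 0 counts alone, at most 34 with WT and 0 with sgPrrx1 CAFs, and Fap at most 2 counts in any 168FARN library and 4 in any LLC1 library. In LLC1 the sums were 177 to 189, 215 to 220 and 235 to 238 CPM, and 2 of 8 markers tested were called in WT against alone, against 8.83% of all genes. Dcn was higher (averages 2.85, 30.1 and 21.4 CPM) and Pdgfrb lower (5.59, 2.38 and 3.01 CPM). Without sgPrrx1 replicate 3, 6 of 8 were called, 4 higher and 2 lower, against 44.2%. The part of fibroblasts left in the sorted cells in the rise of Lox, Loxl2, Serpinh1 and Adamts2 was not tested. In bulk libraries, fewer cells of a type and less RNA per cell cannot be told apart.

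Markers of other cell types were summed in the same way. The 10 epithelial markers summed to 329 to 352 CPM in 168FARN alone, 373 to 400 with WT and 427 to 433 with sgPrrx1 CAFs, nearly all from the keratin gene Krt8, and to at most 0.969 CPM in any LLC1 library. The defining epithelial markers Epcam and Cdh1 had at most 6 and 3 counts in a 168FARN library and at most 0 and 8 in an LLC1 library, so neither line had more than a trace of them. The 7 macrophage markers summed to 84.7 to 90.7, 74.2 to 75.3 and 99.2 to 103 CPM in 168FARN, and to 26.8 to 29.2, 49.5 to 52.9 and 53.0 to 90.4 CPM in LLC1. The 6 endothelial markers summed to 0.535 to 0.658, 5.71 to 6.74 and 4.08 to 4.64 CPM in 168FARN and to 0.025 to 0.103, 5.57 to 6.67 and 0.103 to 0.352 CPM in LLC1. In WT coculture these came mainly from Cdh5 in 168FARN (5.94 CPM) and Kdr in LLC1 (6.04 CPM), while Emcn was at 0 in all libraries. Among the macrophage markers Cd68 was present throughout, and Ptprc and Adgre1 had at most 3 counts in any library. The part of these cell types in the results was not tested.

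Over the 9 libraries of 168FARN, the genes whose log2 CPM followed a member most closely were sought among 10879 genes with a mean of at least 100 counts, as a description. For Lox they were Bhlhe40 (r = 0.999), Vcan and Noct (both 0.998), and for Serpinh1 Vcan (0.998), Rasal2 (0.998) and Anxa6 (0.997). For Plod2 they were Pygl, Hcfc1r1 and Cdh11 (all 0.996), and for Pcolce Epn2 (0.997), Ssc5d and Mrc2 (both 0.993). The 9 points share 3 groups and are not independent. Vcan, the proteoglycan versican, averaged 0.203, 18.6 and 3.05 CPM, and Mrc2, a collagen uptake receptor, 239, 193 and 119 CPM, in the order alone, WT, sgPrrx1.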

How the data were processed

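RNA was sequenced from sorted cancer cells in 18 libraries, 3 in each of 3 groups of each line, as paired reads of 100 bases. According to the study's methods and processing notes, the authors trimmed reads with Trimmomatic, aligned them to mm10 with STAR and counted them per gene with HTSeq, and the deposited values are whole-number counts with no normalization across libraries, taken here as raw counts. The strand setting and annotation of the counting are not given in the sources used here. The methods name a batch correction by ComBat-seq after describing the mouse and human alignments, without saying which tables it covered, so that these counts may have been adjusted by it.

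Each table was fitted by itself over its 3 groups in edgeR 4.0.16 (R 4.3.3) with filterByExpr, TMM scaling, quasi-likelihood fits (glmQLFit, glmQLFTest) and Benjamini-Hochberg adjustment, and a standard error (SE) is the log2 fold change divided by the square root of its F statistic. The difference between lines was the interaction term in a fit of both tables. DESeq2 1.42.0 and limma 3.58.1 voom with sample quality weights were alternatives. Libraries with the same replicate number in LLC1 alone and sgPrrx1 coculture deviated together (r = 0.131, 0.249 and 0.419), so a fit with the number as a block was read for that comparison, where it changed no call among the enzymes. The code was tested on simulated data. List genes were named where their mean count was at least 100 and they were called, at most 4 per list and contrast by size, with collagens, isoenzymes and markers given as values in addition. Levels per kb used the union of exons of GENCODE vM1, and coordinates came from RefSeq GRCm38.p6. Symbols matched RefSeq for 95.9% of each table. The 10 genes and the gene lists were chosen with earlier results of these data known, so no list is independent evidence.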

Additional observations from a re-analysis of the deposited data

Results flagged for a closer look

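Of the 10 enzymes, 6 gave a different log2 fold change of WT coculture against alone in the 2 lines, by edgeR's interaction test with Benjamini-Hochberg adjustment, as did 29.4% of all genes. The value in LLC1 minus that in 168FARN was -6.70 for Serpinh1, -4.22 for Loxl2, -3.60 for Lox, -1.52 for Loxl1, -0.79 for Loxl3 and -0.74 for Bmp1. Without replicate 3 of the LLC1 sgPrrx1 coculture these differences were -6.68, -4.19, -3.57, -1.49, -0.76 and -0.70 in the same order, and Plod2, Plod1 and Pcolce passed the threshold in addition, where 52.5% of all genes did. Without replicate 1 of 168FARN alone the difference of Loxl2 was -4.82.

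For sgPrrx1 against WT coculture, 6 enzymes differed between the lines by the same test, as did 19.3% of all genes. The difference was 2.67 for Serpinh1, 1.41 for Loxl1, 1.08 for Loxl3, 0.98 for Pcolce, 0.88 for Bmp1 and 0.78 for Plod1. Without the same library it was 2.06, 1.25, 0.95, 0.56, 0.73 and 0.56, and Plod2 (0.80) and Adamts2 (3.10) also passed, where 44.5% of all genes did. The tables of the 2 lines were scaled together in this fit, and line and kind of fibroblast cannot be told apart.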

How the results depend on the processing

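In 168FARN 10 of 10 enzymes were called for WT coculture against alone and for sgPrrx1 against WT with each other scaling, with DESeq2 and voom, without the filter and with each library left out (10 to 10), and 7 to 8 for sgPrrx1 against alone when a library was left out. Requiring an absolute log2 fold change of at least 1 left 4 for WT against alone, 4 for sgPrrx1 against alone, 5 for sgPrrx1 against WT and 3 for the difference between lines in sgPrrx1 against WT. Requiring 10 counts in every library left 7 called for both of the first comparisons in 168FARN, 5 for sgPrrx1 against alone in 168FARN and 1 for WT against alone in LLC1, where fewer of the enzymes were tested. Shares of all genes under these settings were not counted, and Adamts2, Lox and Loxl2 were otherwise kept only through the cocultures. Nothing is therefore read from these counts.

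LLC1 counts depended on single libraries and on the tool. For WT against alone, 4 were called (8.83% of all genes), 8 by limma voom with sample quality weights, 8 when only the 2 groups were fitted, and 1 to 8 when a library was left out. Without sgPrrx1 replicate 3 the share of all genes was 44.2%. For sgPrrx1 against alone, 0 became 2 by DESeq2 (15.1% of all genes), 5 by voom (48.0%) and 0 to 5 when a library was left out. For sgPrrx1 against WT, 0 became 4 by DESeq2 (3.90% of all genes), 6 by voom (36.4%) and 0 to 4 when a library was left out. The highest of each range left out sgPrrx1 replicate 3. The difference between lines gave 6 to 9 for WT against alone and 6 to 8 for sgPrrx1 against WT. Where no share of all genes is given it was not counted, and nothing is read from the counts in this paragraph.

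Some values that were not called changed sign. By voom, Plod2 of LLC1 was -0.00102 for WT against alone and 0.000871 for sgPrrx1 against WT, and Plod1 was -0.017 for sgPrrx1 against alone. Serpinh1 of LLC1 for sgPrrx1 against alone was -0.22 by voom, -0.093 on library totals and -0.032 with a replicate block. When a library was left out, Serpinh1 of LLC1 ranged from -0.12 to 0.56 for WT against alone, -0.59 to 0.47 for sgPrrx1 against alone and -0.67 to 0.18 for sgPrrx1 against WT. For sgPrrx1 against alone in LLC1, Bmp1 ranged from -0.18 to 0.030, Plod1 from -0.014 to 0.29 and Plod2 from -0.39 to 0.059. Plod2 of LLC1 ranged from -0.44 to 0.0014 for sgPrrx1 against WT, and the difference of Lox between lines in that contrast from -0.23 to 0.59. The causes were not tested.

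Samples with the same replicate number did not deviate together in 168FARN, where the mean correlation of their deviations was -0.0087 (-0.07 to 0.06). In LLC1 the mean was 0.15 (-0.04 to 0.42), and 6 of 9 correlations were over 0.1, those of all 3 pairs between cells alone and sgPrrx1 coculture among them. With the replicate block the enzymes called were 10, 7 and 10 in 168FARN and 3, 0 and 0 in LLC1 for WT against alone, sgPrrx1 against alone and sgPrrx1 against WT. Shares of all genes under the block were not counted, so nothing is read from these counts. The call lost in LLC1 was Adamts2 in WT against alone (adjusted p = 0.0552 by edgeR).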

Other observations

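Serpinh1 varied more within the groups of LLC1 than between them, which was noticed after its values were seen. The highest library was 2.12 times the lowest in cells alone, 2.02 times with WT fibroblasts and 2.61 times with sgPrrx1 fibroblasts, and values of 829 to 1129 CPM and of 417 to 484 CPM occurred in every group. Over the 9 LLC1 libraries the gene most like Serpinh1 among 11003 was Mmadhc, with r = 0.893, and its own level ran only from 51.1 to 78.3 CPM. The gene with the most opposite pattern was Klhl18, with r = -0.969 and a range of 8.54 to 11.2 CPM. In 168FARN the highest library was 2.73 times the lowest in cells alone, on 16 to 33 counts, 1.07 times with WT CAFs and 1.09 times with sgPrrx1 CAFs.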
